A study of Homo sapiens with 8 samples.

Results

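GATA2 peaks around 8 genes of the insulin-like growth factor (IGF) axis were examined in VCaP, an established human castrate-resistant prostate cancer cell line. The genes are IGF2, POM121, IGF1R, INSR, IGFBP3, IGFBP5, IRS1 and IRS2. A peak belonged to a gene when its summit lay within 100 kb of the gene's RefSeq span (GRCh38, the build of the peak lists). Peaks that overlapped between lists were merged into regions, which gave 57 of the 36122 regions of the series for 8 of 20037 protein-coding genes. The rule used gene names and distances only, and no measured value.

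GATA2 binding had been measured by chromatin immunoprecipitation and sequencing in cells kept 72 h without steroids. JQ1 cells received 1 µM JQ1, an inhibitor of the BET bromodomain proteins that read acetylated histones, for 24 h. Control cells are titled as not treated, the protocol names DMSO for them, and they are called untreated here. There were 2 precipitates per treatment, each with its own peak list, and 4 input samples for which no list was used here. JQ1 replicates 1 and 2 held 4974 and 32404 peaks, and untreated replicates 1 and 2 held 6902 and 27373, so that list length differed more between replicates than between treatments. Luminal prostate marker genes, among them KLK3, KLK2, TMPRSS2, FOXA1 and ACP3, had peaks within 100 kb in every list, while HOXB13 had none in JQ1 replicate 1. Peak lists hold no RNA levels, so the cell type could not be checked further.

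IGF2 is a secreted growth factor. It acts through IGF1R and INSR, receptor tyrosine kinases that phosphorylate the adaptors IRS1 and IRS2, which in turn engage PI3K and AKT. IGFBP3 and IGFBP5 bind IGFs outside the cell and limit or prolong their access to receptors. IGF2 has been reported as a GATA2 target in prostate cancer. POM121 codes for a nuclear pore protein reported to help bring GATA2 into the nucleus there.

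No peak of any list overlapped the 250 bases before any listed transcription start of these genes, as for most promoters, since peaks overlapped 0.757% of the 35116 listed promoters. The promoter table (RefSeq, GRCh38.p14) held 8 starts for 7 of the genes, all but IGF2. The regions nearest to a start lay 2.17 kb upstream of that of IRS2 and 2.27 kb upstream of that of IGFBP3, and the IRS2 one was in JQ1 replicate 2 alone, with 2.98-fold enrichment over local background. Those promoters are shown with the second listed start of POM121, the one of the 8 that held the letters GATA on either strand. All are written 5′ to 3′ on the gene's strand, and capitals mark GATA or its reverse complement TATC.
IRS2, chr13:109786584-109786833, minus strand: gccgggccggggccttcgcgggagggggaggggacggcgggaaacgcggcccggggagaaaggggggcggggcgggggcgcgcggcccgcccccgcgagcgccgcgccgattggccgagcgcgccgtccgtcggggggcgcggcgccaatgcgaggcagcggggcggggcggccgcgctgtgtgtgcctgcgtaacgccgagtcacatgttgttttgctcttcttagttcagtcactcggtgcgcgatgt
IGFBP3, chr7:45921273-45921522, minus strand: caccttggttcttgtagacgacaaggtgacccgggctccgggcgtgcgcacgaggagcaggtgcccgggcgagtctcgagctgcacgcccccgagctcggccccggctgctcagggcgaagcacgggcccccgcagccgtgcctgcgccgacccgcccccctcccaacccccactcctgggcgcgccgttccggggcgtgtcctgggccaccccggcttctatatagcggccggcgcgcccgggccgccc
POM121, chr7:72924845-72925094, plus strand: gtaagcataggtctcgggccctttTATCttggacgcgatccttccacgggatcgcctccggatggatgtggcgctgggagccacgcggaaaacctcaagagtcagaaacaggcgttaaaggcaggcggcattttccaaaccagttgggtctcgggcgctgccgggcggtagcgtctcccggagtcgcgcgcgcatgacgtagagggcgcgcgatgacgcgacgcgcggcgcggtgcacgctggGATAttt
GATA on either strand occurred in 45.6% of all listed promoters of this length. The longer AGATAA, which contains GATA, occurred in 9.17%, and the TATC near the start of the POM121 sequence was part of an AGATAA on the other strand. The IRS2 and IGFBP3 promoters were 76.4% and 76.0% G or C. The sequences under the peaks were not analysed here.

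GATA2 peaks were unevenly spread over the axis, with most at the adaptor gene IRS2 and the receptor gene IGF1R and none at POM121. IRS2 (chromosome 13, 109752695 to 109786583) had 3 and 20 peaks in JQ1 replicates 1 and 2, against 6 and 17 in untreated replicates 1 and 2. IGF1R (chromosome 15, 98648539 to 98964530) had 2 and 14 peaks with JQ1 and 2 and 12 untreated. IRS1 (chromosome 2, 226731312 to 226799820) had 1 and 5 with JQ1 and 3 and 5 untreated. The counts of each gene followed the replicate, being low in both replicate 1 lists and high in both replicate 2 lists.

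At the other genes, few peaks were listed. IGFBP3 (chromosome 7, 45912245 to 45921272) had 1 and 3 with JQ1 and 0 and 4 untreated, and IGF2 (chromosome 11, 2129117 to 2149566) had 0 and 2 with JQ1 and 1 and 3 untreated. IGFBP5 (chromosome 2, 216672105 to 216695549) had 0 and 2 with JQ1 and 0 and 1 untreated. INSR (chromosome 19, 7112265 to 7294414) had 0 and 1 with either treatment. INSR and IGFBP5 thus had peaks in the long lists of replicate 2 and in no other list.

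**Figure D1:**
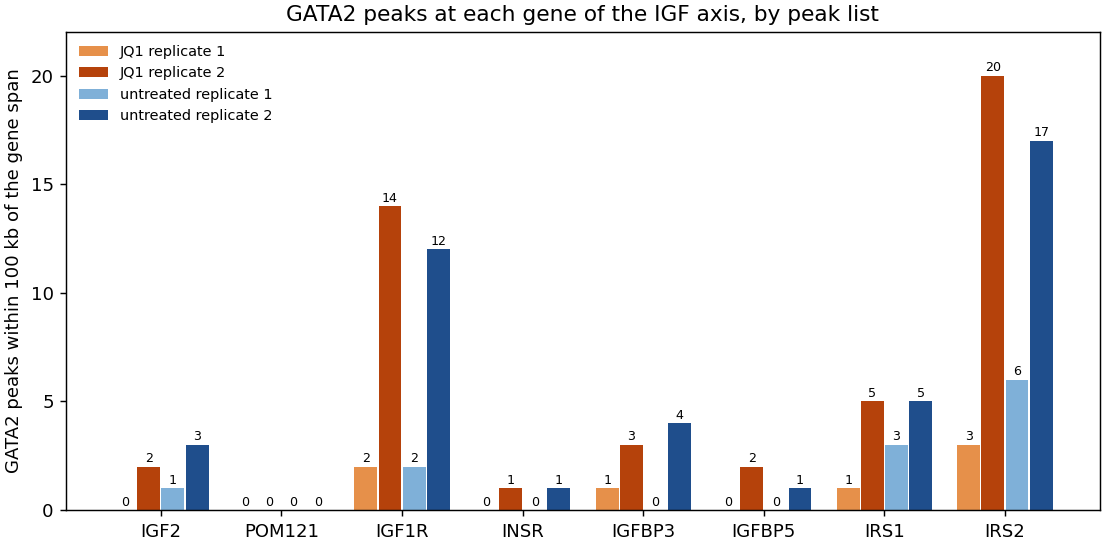
Number of GATA2 peaks with a summit within 100 kb of each gene span (vertical axis) in the 4 peak lists (bar colours), with the number above each bar. IRS2 reached 20 and 17 peaks in the replicate 2 lists of JQ1 and untreated cells, and POM121 had 0 in every list.

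The number of peaks at the axis was no more different between treatments than between replicates. The 8 genes together had 7 and 47 peaks with JQ1 (mean 27 ± 28.3, SD, n = 2) and 12 and 43 untreated (mean 27.5 ± 21.9, SD, n = 2). The difference between the mean log2 counts was −0.32 (exact permutation test of the 4 lists, two-sided, p = 1). It was −0.78 within replicate 1 and 0.13 within replicate 2, so that the replicates went in opposite directions. The smallest p that 2 lists against 2 can give is 0.333, and, since the labels do not say whether replicates were separate cultures, p measures the spread between these samples, which may be technical.

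As a share of its own list, the axis took slightly less of the JQ1 lists. The share was 0.141% (95% Wilson interval 0.0682 to 0.29) and 0.145% (0.109 to 0.193) in JQ1 replicates 1 and 2. It was 0.174% (0.0995 to 0.304) and 0.157% (0.117 to 0.212) in untreated replicates 1 and 2. The groups did not overlap, but the intervals, which cover counting error only, did. The difference between the mean log2 shares was −0.21 (exact permutation p = 0.333, the smallest possible). It turned to 0.04 with a window of 10 kb and to 0.11 with peaks of at least 5-fold enrichment, so no direction can be given. In each treatment, 4 genes had a peak in replicate 1 and 7 in replicate 2, where 27.5% and 73.5% of all genes had one with JQ1 and 37.7% and 70.4% untreated. Over all lists, 7 of the 8 genes had a peak, as had 77.5% of all genes.

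Merged regions of the axis were shared between lists about as often as all regions. Of the 57, 5 were present in all 4 lists (8.77%, against 8.96% of all 36122 regions), 2 each at IGF1R and IRS2 and 1 at IRS1. Another 22 were in both replicate 2 lists and neither replicate 1 list (38.6% against 38.0%). JQ1 replicate 2 alone held 12 regions (21.1% against 25.9%), untreated replicate 2 alone held 9 (15.8% against 13.3%), and a replicate 1 list alone held 1 (1.75% against 0.836%). Both JQ1 lists shared 7 regions (12.3% against 13.1%) and both untreated lists shared 10 (17.5% against 17.6%). No region of the axis was present in both lists of a treatment and absent from both of the other. Of all regions, 0.377% had that pattern for JQ1 and 0.62% for untreated cells.

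The ligand gene IGF2 had no GATA2 summit inside its span or within 50 kb of it. Its nearest region lay 51.4 kb beyond the low-coordinate end, at 2077551 to 2077869. The authors' peak caller gave each peak a fold enrichment, a linear ratio of precipitate over local background, and a q-value, and peaks were ranked by q-value within their list. The IGF2 region had a fold of 11.9 in JQ1 replicate 2, where it was in the top 14.5%. Untreated replicates 1 and 2 listed it with folds of 3.9 and 11.6, in the top 93.0% and 22.5%, and JQ1 replicate 1 had no peak there. It was thus well above the middle of both replicate 2 lists and among the weakest of untreated replicate 1. Another region of IGF2, 92.3 kb away, was nearer to ASCL2, the gene of a basic helix-loop-helix factor, and had folds of 5.99 in JQ1 replicate 2 and 7.16 in untreated replicate 2. A peak at 2077340, with a fold of 5.8, was in untreated replicate 2 alone.

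POM121 (chromosome 7, 72879357 to 72951459) had no peak in any list, as had 22.5% of all protein-coding genes. The nearest summit of any list was 397 kb from its span, at 72481921, with a fold of 5.24 in JQ1 replicate 2. POM121 has near-identical copies on chromosome 7, and how the authors treated reads that map to several places is not given in the sources used here. The lack of a peak therefore says only that none was called.

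IGF1R, the main IGF receptor gene, had 16 regions, 14 of them inside its 316 kb span. The strongest lay 6.67 kb downstream of the transcription start, at 98654920 to 98655362, and was present in every list. Its fold was 6.6 and 19.1 in JQ1 replicates 1 and 2, and 6.36 and 16.0 in untreated replicates 1 and 2. Within their lists these peaks were in the top 26.0% and 6.09% with JQ1 and in the top 31.4% and 8.83% untreated. Folds were thus similar between treatments within each replicate.

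The other IGF1R region of all 4 lists lay 207 kb downstream of the start, at 98855320 to 98855616. Its fold was 7.76 and 6.42 in JQ1 replicates 1 and 2, and 9.27 and 13.6 in untreated replicates 1 and 2. Both JQ1 values were below both untreated values. The deposited fold and p-value of a peak together give the fragment pileup at the summit and the local background set against it, on the same scale within a list. The pileup was 26 and 41 over backgrounds of 2.48 and 5.54 in JQ1 replicates 1 and 2, and 35 and 66.6 over 2.88 and 3.95 in untreated replicates 1 and 2. Both depend on the depth of the libraries, so a pileup is read against its own background and a background against the median of its own list. Another IGF1R site, 93.8 kb upstream of the start, had a fold of 8.86 in JQ1 replicate 2 and 4.99 in untreated replicate 2 and no peak in replicate 1. The rest of the IGF1R regions had folds from 3.19 to 7.57. The upstream site was the outermost inside the window, and the next region beyond it, 105 kb from the span, had a fold of 6.1 in untreated replicate 2.

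INSR, the insulin receptor gene, had a single region, inside the span and 28.3 kb downstream of the start. The fold was 8.48 in JQ1 replicate 2 and 5 in untreated replicate 2. The pileup was 31 over a background of 2.77 with JQ1 and 24 over 4 untreated. Background was 1 time the list median with JQ1 and 1.88 times the list median in the untreated list, and its part in the difference in fold was not tested.

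The region 2.27 kb upstream of IGFBP3, at 45923412 to 45923685, held the best rank of the axis in any list. It had a fold of 5.15 and 29.0 in JQ1 replicates 1 and 2, and of 11.7 in untreated replicate 2. These peaks were in the top 35.5% and 1.6% with JQ1 and in the top 10.5% of untreated replicate 2. Untreated replicate 1 had no peak there, so the better rank was with JQ1 in replicate 2 and the sole call was with JQ1 in replicate 1. The pileup was 103 over a background of 2.58 in JQ1 replicate 2, against 83.7 over 6.23 in untreated replicate 2, where the list medians of background were 2.77 and 2.13. Background was thus below its list median with JQ1 and above it in untreated cells, and its part in the result was not tested. In JQ1 replicate 1 the pileup was 32 over a background of 5.41, which was above the list median of 2.39.

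The other 4 regions at IGFBP3 had folds between 3.54 and 4.77, and the one at 45893674 lay 0.014 kb from IGFBP1, its neighbour, whose product also binds IGFs. Both regions at IGFBP5 were nearer to IGFBP2, another binding protein gene. The one 6.41 kb from IGFBP2, at 216626292 to 216626533, had a fold of 8.48 in JQ1 replicate 2 and 8.91 in untreated replicate 2. The binding protein windows thus held neighbouring genes of the same family, and distance does not say which gene a site acts on.

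At the adaptor gene IRS1, a region inside the span had a lower fold with JQ1 in replicate 2 and, in replicate 1, was called in untreated cells and not with JQ1. It lay 27 kb downstream of the start, at 226772640 to 226772934. JQ1 replicate 2 listed it with a fold of 7.69 and JQ1 replicate 1 not at all, whereas untreated replicates 1 and 2 gave folds of 11.9 and 13.5. It was in the top 39.7% of JQ1 replicate 2, and in the top 7.52% and 17.0% of untreated replicates 1 and 2. The pileup was 28 over a background of 2.77 in JQ1 replicate 2, and 48 over 3.1 and 52.8 over 3 in untreated replicates 1 and 2. The list of JQ1 replicate 1 was the shortest of the 4. With all lists cut to the length of the shortest, this was the single region of the axis present in both untreated lists and neither JQ1 list.

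The strongest IRS1 region lay outside the gene, 54.1 kb from its low-coordinate end at 226677040 to 226677384, and was present in all 4 lists. Its fold was 5.81 and 19.5 in JQ1 replicates 1 and 2, and 8.08 and 17.6 in untreated replicates 1 and 2, so the replicates went in opposite directions. The 4 other IRS1 regions had folds from 5.03 to 7.96, and one of them, at 226733486, was in untreated replicate 1 alone.

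**Figure D2:**
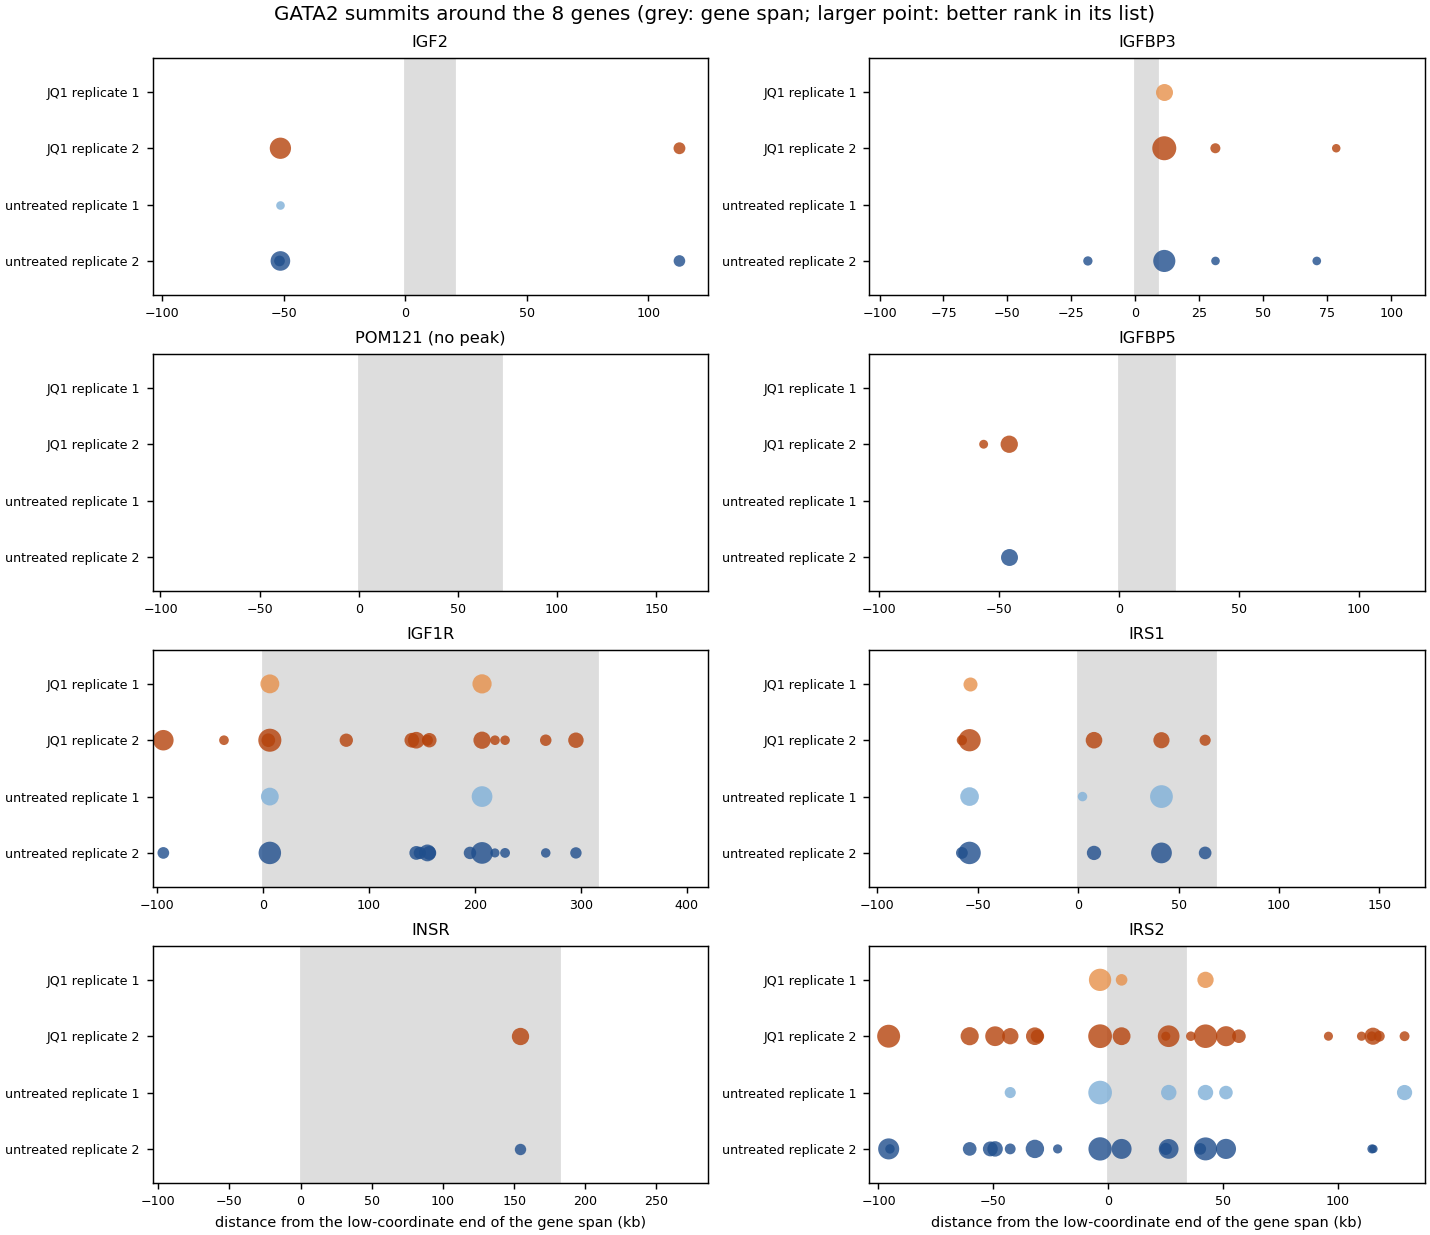
Summits of GATA2 peaks (points, 1 per region and list) by distance in kb from the low-coordinate end of each gene span (grey), with 1 row per list and JQ1 lists above untreated lists. Larger points rank better in their own list, and most points of IGF1R lie inside its 316 kb span while those of IRS2 lie on both sides of its 33.9 kb span.

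IRS2, the gene of an adaptor needed in mice for insulin action in liver and for beta cell mass, had the densest cluster of GATA2 regions of the axis. There were 24 regions in its window, or 10.3 per 100 kb, against a median of 0.88 per 100 kb over all protein-coding genes. Of all genes, 0.00998% had as many per 100 kb, namely IRS2 and its neighbour LOC124903211, whose windows overlap. IGF1R followed with 3.1 per 100 kb, IGFBP3 with 2.39, IRS1 with 2.23, IGF2 with 1.36, IGFBP5 with 0.895 and INSR with 0.262. At least as dense were 4.26% of genes for IGF1R, 10.5% for IGFBP3, 12.6% for IRS1 and 32.0% for IGF2. Windows near the median, such as that of IGFBP5, do not stand out from other genes.

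The strongest IRS2 region lay 3.46 kb beyond the low-coordinate end of the span, at 109749051 to 109749432. It had folds of 5.83 and 12.9 in JQ1 replicates 1 and 2, and of 7.84 and 9.63 in untreated replicates 1 and 2. Another, 8.59 kb upstream of the start at 109795004 to 109795328, had folds of 4.17 and 9.04 with JQ1 and of 3.88 and 8.68 untreated. These were the regions of IRS2 present in all 4 lists, and in the first the fold was lower with JQ1 in replicate 1 and higher in replicate 2. The region inside the span at 109758595 was in both JQ1 lists and in untreated replicate 2. Those at 109710124, 109779104 and 109804066 were in both untreated lists and in JQ1 replicate 2. Of the 24 regions, 11 lay over or nearer to LOC124903211.

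Peaks at IRS2 also had a high local background. Their median background was 8.79 and 11.1 in JQ1 replicates 1 and 2, and 10.4 and 9.45 in untreated replicates 1 and 2. This was 3.67 and 4 times the median of all peaks of the JQ1 lists and 3.84 and 4.44 times that of the untreated lists. No more than 1.05% of the peaks of any list had a background that high. At the other genes the ratio ran from 0.833 to 2.26. In the replicate 2 lists, background stayed at least 2 times the list median from 1 Mb below to 2.5 Mb above the low-coordinate end of IRS2, in steps of 500 kb. The 12 other protein-coding genes in that stretch had a median of 2.82 regions per 100 kb, between 0.978 and 10.8. The 10.8 was that of LOC124903211, whose window overlaps that of IRS2, and the next highest was 4.23 at ANKRD10.

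Folds were low at IRS2, where background was high. The median fold of its peaks was 4.17 and 4.53 in JQ1 replicates 1 and 2, and 4.06 and 4.96 in untreated replicates 1 and 2, below the list medians of 5.94 and 6.62 with JQ1 and 6.14 and 7.46 untreated. With peaks of at least 5-fold enrichment, IRS2 kept 10 regions, or 4.28 per 100 kb, and 0.165% of genes were at least as dense. IGF1R kept 14 regions and IRS1 6. The part of background in the number of IRS2 peaks was not tested. The limit of 100 kb cut through the cluster, as the outermost region inside it lay 95.6 kb from the span, with a fold of 8.66 in JQ1 replicate 2 and 7.95 in untreated replicate 2. The first beyond it, 110.0 kb away at 109642600, was in all 4 lists. At INSR, too, a region of all 4 lists lay just outside, 131 kb from the span at 7425096.

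**Figure D3:**
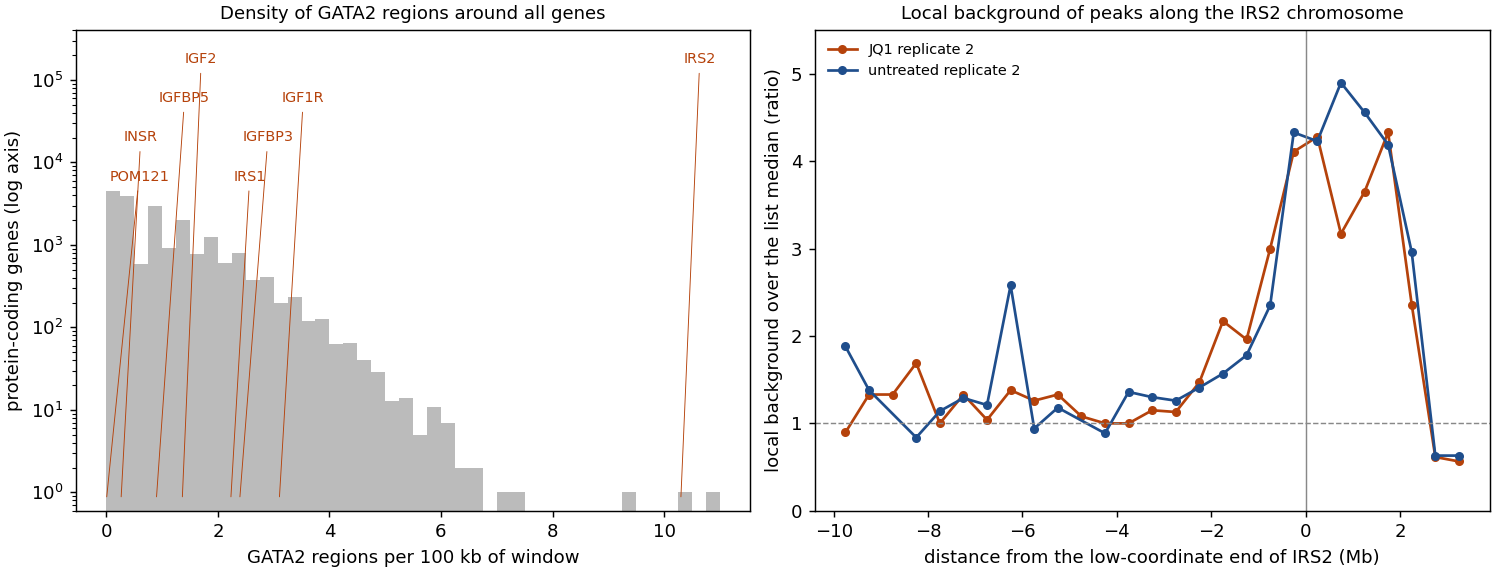
Left, number of protein-coding genes (log axis) by GATA2 regions per 100 kb of window, with the 8 genes marked, IRS2 at 10.3 and IGF1R at 3.1. Right, median local background of peaks over the list median in steps of 500 kb along chromosome 13 for the replicate 2 lists, which stays above 2 from 1 Mb below to 2.5 Mb above the low-coordinate end of IRS2.

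**Figure D4:**
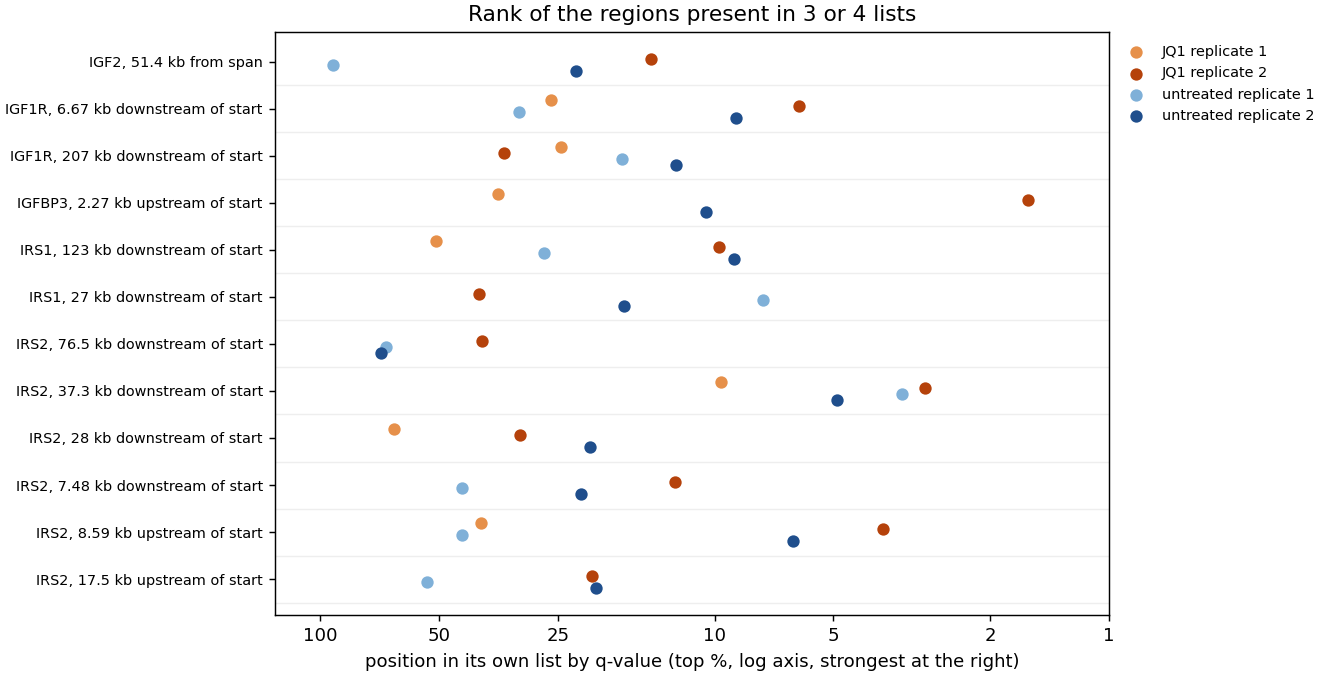
Position of each peak in its own list by q-value (top %, log axis, strongest at the right) for the 12 regions present in 3 or 4 lists, with points coloured by list. The IGFBP3 region stood at the top 1.6% in JQ1 replicate 2 and the top 10.5% in untreated replicate 2, and the inner IRS1 region at the top 39.7% and 17.0%.

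Ranks can be set side by side over the same regions, namely those present in both lists of a replicate. In replicate 2, 34 of the 21173 shared regions belonged to the axis, and 20 of them (58.8%) ranked better with JQ1, against 48.8% of all shared regions. The site 93.8 kb upstream of IGF1R stood in the top 27.2% with JQ1 and the top 75.1% untreated, and 2.13% of shared regions gained as much. The IRS2 region at 109868113 stood in the top 49.6% with JQ1 and the top 98.8% untreated. Its untreated peak was weak, with a fold of 2.62, and had its summit at 109868283, so the merged peaks may not be the same site. In the opposite direction, the IGF1R region at 98803911 stood in the top 84.2% with JQ1 and the top 45.1% untreated, and 3.57% of regions lost as much. The inner IRS1 region (top 55.6% with JQ1, 21.6% untreated) and the IGF1R region 207 kb downstream (48.9% and 15.9%) also ranked lower with JQ1. Of shared regions, 5.77% and 6.2% lost as much as these. Regions with gains and losses thus lay within the same gene window. In replicate 1, 5 of 3271 shared regions belonged to the axis, and 2 ranked better with JQ1. Of these 5, the IGF1R region 6.67 kb downstream and the IRS2 region 8.59 kb upstream ranked better with JQ1 in both replicates. The strongest IRS1 region and the IGF1R region 207 kb downstream ranked lower in both, and the strongest IRS2 region went in opposite directions. Each shift that kept its direction was small in at least 1 replicate. In replicate 1, 24.9%, 27.8%, 24.3% and 45.7% of shared regions, in the order named, moved at least as far the same way. In replicate 2 these shares were 42.7%, 41.8%, 41.8% and 6.2%. Agreement between replicates was not tested.

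**Figure D5:**
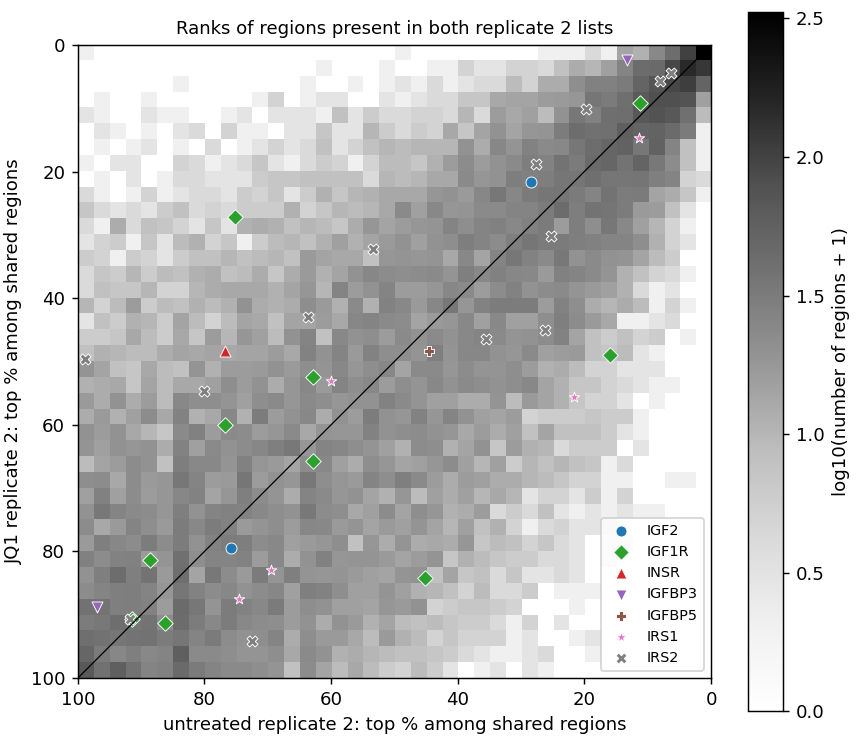
Rank of the 21173 regions present in both replicate 2 lists, as top % of these regions in JQ1 replicate 2 (vertical axis) and untreated replicate 2 (horizontal axis), both strongest at the upper right. Grey shows the number of all regions (log10 scale) and symbols the 34 regions of the axis, of which 20 lie above the diagonal, ranking better with JQ1.

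The wider insulin and IGF pathway carried GATA2 regions about as often as other genes or somewhat more often. A list of 65 further genes had a region present in all 4 lists at 15 (23.1%, against 21.0% of all protein-coding genes) and no peak at 13 (20.0% against 22.5%). A peak lay near 22 and 51 of the 65 in JQ1 replicates 1 and 2, where 27.5% and 73.5% of all genes had one. In untreated replicates 1 and 2 a peak lay near 28 and 48 of the 65, against 37.7% and 70.4% of all genes. Regions common to both JQ1 lists were near 22 of the 65 (27.0% of all genes had one) and to both untreated lists near 28 of the 65 (36.0% of all genes). For peaks and for regions common to a treatment, the share of the 65 was each time above that of all genes. These differences were not tested. The ligand gene IGF1 had a common region 22.4 kb from its span, with folds of 5.96 and 19.3 in JQ1 replicates 1 and 2 and of 4.66 and 14.7 in untreated replicates 1 and 2. INS, IGFBP1 and IGFBP2 shared regions with IGF2, IGFBP3 and IGFBP5, and their counts are not independent of those.

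Among binding protein genes, 2 of 8 had a common region. IGFBP7, which codes for a secreted protein of the wider family, had one 6.08 kb from its span. Its folds were 13.6 and 23.7 with JQ1 and 12.9 and 26.0 untreated, and it stood within the top 8.4% of each list. IGFBP6 had one 84.6 kb away. In the PI3K and AKT branch, 4 of 15 had one, among them PIK3CA, the gene of a catalytic subunit, PIK3R2, of a regulatory subunit, and PTPN1, of a phosphatase that acts on the insulin receptor. The PTPN1 region, 39.0 kb from the span, had folds of 9.18 and 30.1 with JQ1 and 14.5 and 31.0 untreated.

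The mTOR branch had common regions at 3 of 8 genes, which were RPTOR, RICTOR and the kinase gene RPS6KB1. The RPS6KB1 region, 22.4 kb from the span, had folds of 14.2 and 38.6 with JQ1 and 11 and 21.4 untreated, higher with JQ1 in both replicates. The region of RICTOR, the gene of a subunit of the second mTOR complex, lay 84.8 kb from the span. Its folds were 9.45 and 18.5 with JQ1 and 10.3 and 35.4 untreated, lower with JQ1 in both replicates. No test was run on these single values. Of the adaptors, 2 of 11 had a common region, SH2B2 and PTPN11. Among outputs and the RAS branch, 1 of 7 and 2 of 9 had one. FOXO1, the gene of a transcription factor restrained by AKT, had the one region found in both JQ1 lists and neither untreated list. Its folds were 5.55 and 4.7, and it stood in the top 74.2% and 74.4% of its lists. It was named after its values were seen, and 0.988% of all genes had such a region. No gene of the list had one found in both untreated lists and neither JQ1 list, against 1.97% of all genes.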

How the data were processed

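The data are 4 peak lists, 1 per GATA2 precipitate, with genome build hg38. The submitters' processing notes name Bowtie2, Picard and MACS2, with versions not given in the sources used here. The authors' peak caller wrote for each deposited peak its limits and summit, a fold enrichment (a linear ratio) at the summit, a p-value and a q-value as −log10, and a score. The deposited score was not used here. The depth of the libraries is not in the lists. The weakest q-values lay between 0.0467 and 0.0495.

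Keeping chromosomes 1 to 22, X and Y left out 10 lines of JQ1 replicate 1 and 8 of untreated replicate 2. Peaks overlapping by at least 1 bp were merged. Gene spans came from RefSeq GRCh38.p14, without exons. Pileup and background were solved from fold, taken as (pileup + 1)/(background + 1), and from the Poisson p-value. All peaks were solved to within 0.005 of the deposited −log10 p, with untreated replicate 2 needing a scale of 0.68628 on its pileup, which is given on that scale; a second solution was absent for at least 98.74% of peaks. Merging, the solver and the exact test were tested on simulated data. Python 3.11.15, pandas 2.3.3, NumPy 2.4.6 and SciPy 1.17.1 were used.

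The 8 genes, the pathway list and the tests were chosen with earlier results of these data known. All regions of the 8 genes could be named, and of the pathway list the first 12 genes in list order with a common or separated region. Some of the genes checked are not reported here. Alternatives were other windows, a stricter q-value, lists of equal length, a reciprocal overlap of 50% and leaving out a replicate. A fold limit of 5 and leaving out IRS2 were chosen after seeing the data.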

Additional observations from a re-analysis of the deposited data

How the results depend on the processing

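With windows of 10 kb, the log2 ratio of the axis' share of peaks was 0.04, there were 27 regions, and 6 pathway genes had a common region. Lists of equal length left 14 regions, with 1 in both untreated lists and neither JQ1 list. At a fold of 5 or more, the log2 ratio of the share was 0.11 and there were 36 regions. Leaving out IRS2 left 33 regions, 3 of them in all lists. The cause of the changes of sign was not tested. Leaving out 1 replicate, either 1 or 2, gave log2 ratios of the peak count from −0.78 to 0.13 and of the share from −0.3 to −0.12. Regions numbered 14 to 56, of which 5 to 34 were in both remaining lists, 2 to 13 in the JQ1 list alone and 7 to 9 in the untreated list alone, and 15 to 45 pathway genes had a common region. The long lists of replicate 2 decide these counts. A window of 50 kb, a q-value of 1e-05 or less and a reciprocal overlap of 50% kept the signs of both log2 ratios, where recomputed, and the region counts within 1.5 times. At single genes, 27 of 64 recounts moved further, as at IRS2, with 24 regions within 100 kb and 7 within 10 kb.

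The labels number the replicates alike but name no shared batch. The deviations of same-numbered lists in presence of a region had a correlation of −0.05 over 36122 regions. It covers only regions called in some list and leaves out the common difference in list length. It therefore cannot decide whether same-numbered lists belong together. With the replicate as a block, the log2 ratios were −0.32 for the count (exact permutation p = 1) and −0.21 for the share (exact permutation p = 0.5, the smallest possible), and the number of genes with a peak differed by 0 (exact permutation p = 1).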

Other observations

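Among all protein-coding genes, the 2 windows with the most GATA2 regions per 100 kb were those of LOC124903211 with 10.8 and IRS2 with 10.3. These windows overlap and share regions. The median local background of their peaks was 4 times the list median at both. Another dense window was that of LOC124904228 on chromosome 1, with 7.33 regions per 100 kb and a background of 0.931 times the median. Of all genes, 416 had peaks with a median background of at least 2 times the list median, and their windows held a median of 1.41 regions per 100 kb, against 1.1 for all genes with a peak. At a fold of 5 or more these medians were 0.774 and 0.925. The genes and limits in these sentences were chosen after seeing the data.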
